A study of Mus musculus with 6 samples.

Results

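The genes described here are 56 genes spread along mouse chromosome 5, chosen by their spread along it after chromosome 5 had been selected on the log2 differences between the groups on these same arrays. Of these, 53 were measured, out of 18193 genes in all. Hmgb1 was left out because each of its 5 probe sets also carries the symbol of another gene, and Nub1 and Arpc3 were not analysed here. Where a gene has several probe sets, the one of highest mean level across arrays stands for it. All 53 lie on chromosome 5 in the RefSeq gene table, from Ankib1 near the start of the gene order to Pds5b near its end. The members do not form a pathway. What they share is the chromosome, and the comparison asked how the RNA of chromosome 5 stood in leukaemia cells with and without Cdh1.

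Both groups were C57BL/6 mice with the gene-trap allele on each copy of Cdh1 (Cdh1 f/f), an allele that keeps the gene working through a floxed cDNA until Cre acts. Cdh1-deficient donors also carried Mx1-Cre and Cdh1-intact donors did not, and the groups came from the same litters. The Cdh1 of the labels is the product of Fzr1, an activator of the anaphase-promoting complex, which marks mitotic proteins for destruction. All donors received pIpC at 7 to 8 weeks of age, which switches on the interferon-responsive Mx1 promoter in blood cells and in other tissues. Marrow was taken 4 weeks after the last pIpC injection and 2 days after 150 mg/kg 5-fluorouracil, and N-myc was delivered with the retroviral vector pMXs-IG, which also encodes green fluorescent protein (GFP). RNA came from sorted GFP-positive marrow cells of moribund mice with B-cell acute lymphoblastic leukaemia, 3 mice per group and 1 array per mouse. Levels below are given array by array, numbers 1, 2 and 3 of the Cdh1-intact group against numbers 1, 2 and 3 of the Cdh1-deficient group. Values are log2 levels made by the authors with RMA, which brings the arrays to a like distribution, so a change in total RNA per cell cannot be seen.

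Cells with an extra or a missing chromosome often carry more or less RNA from many genes of that chromosome at once, a relation known as gene dosage. Whole-chromosome gains and losses are common in leukaemias of mice and humans, and Cdh1 takes part in the control of mitosis, the step at which chromosomes are shared out. An expression array reads RNA only. Copy number was not measured in these mice, and its part in the values below was not tested. In sorted bulk cells, fewer cells of a type and less RNA per cell cannot be told apart.

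The arrays differed in lineage transcripts, and these values stand beside every result below. Fzr1 itself read 8.92, 8.04 and 8.92 against 8.10, 7.73 and 8.22, with an overlap, and its probe positions with respect to the trap are not given here, so this does not check the labels. On Cdh1-intact array 2 the mean level of 9 measured B-cell markers of 10 was 4.87, against 8.72 to 9.46 on the other arrays. The mean of 8 measured T and NK cell markers of 9 was 9.43 there, against 5.16 to 6.90 elsewhere, and the mean of 8 neutrophil markers of 8 was 6.24 against 9.45 to 11.47. Over 5 macrophage markers of 5 the mean was 7.24, 4.99 and 5.62 against 5.67, 6.03 and 5.56. Over 3 measured erythroid markers of 5 it was 6.15, 4.44 and 4.37 against 4.38, 4.72 and 4.57. Cdh1-intact array 2 therefore did not show the B-cell transcripts its label names, and the counts and medians over members are given with and without it. Cdh1-intact array 1 stood apart in Xist, the RNA that coats the inactive X chromosome, which read 6.75 there and between 12.58 and 13.17 on the remaining 5, and it had the highest macrophage and erythroid means. None of these markers lies on chromosome 5. The part of cell makeup in the chromosome 5 values was not tested beyond leaving arrays out.

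Most members were higher in Cdh1-deficient cells. The difference was positive for 48 of 53 members, beside 50.9% of all genes tested, and its median was 0.37 on the log2 scale, a 1.29-fold difference, beside a median of 0.0034 over all genes. The lower and upper quartiles over members were 0.19 and 0.63. All 3 Cdh1-deficient arrays lay above all 3 Cdh1-intact arrays for 26 members, beside 6.65% of all genes, and the opposite order was seen for 0 members, beside 5.09%. Among all genes at or above the median level, where 52 of the members lie, 62.53% were higher, with a median of 0.0868. There 9.88% lay in the upward and 4.03% in the downward order. With limma 0 members had an adjusted p under 0.05, beside 0% of all genes, and the lowest adjusted p among members was 0.849. Before adjustment 16 higher members had a p under 0.05, beside 4.01% of all genes, and 0 lower ones, beside 1.49%. The members were chosen with this contrast known, so these counts describe them and test nothing.

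Without Cdh1-intact array 2 the median over members was 0.35, with 49 members higher and 33 separate between the groups, beside 11.2% of all genes with that array left out. Leaving out Cdh1-intact array 1 instead gave 47 higher members, and leaving out Cdh1-intact array 3 gave 48, with a median of 0.383. The lowest value of the 6 lay on Cdh1-intact array 1 for 25 members, on Cdh1-intact array 2 for 22 and on Cdh1-intact array 3 for 3. Members varied more among Cdh1-intact arrays than among Cdh1-deficient ones, with a median SD of 0.284 against 0.149 (n = 3 each). Genes of the other chromosomes at or above the median level had 0.289 and 0.186.

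Single members leaned on single arrays more than their median did. For 33 of the 53 the difference moved by over 1.5 times, or changed sign, when some array was left out. That held for 25 members without Cdh1-intact array 2, for 22 without Cdh1-intact array 1, and for 5 to 11 without any 1 of the other 4 arrays. The role groups described below had these medians without Cdh1-intact array 2: growth signalling 0.22, cytoskeleton 0.19, membrane traffic 0.24 and transcription factors 0.29. RNA binding had 0.29, RNA polymerase II and chromatin 0.55, DNA repair and cell death 0.47 and mitochondrial and metabolic members 0.36. In that order the higher members were 6 of 7, 3 of 3, 10 of 11 and 9 of 9. From RNA binding on they were 3 of 4, 8 of 8, 5 of 5 and 5 of 6. Separate between the groups were 5, 0, 7, 4, 3, 6, 4 and 4, in the same order, beside 11.2% of all genes. The separate counts below, with all 6 arrays, stand beside 6.65% of all genes.

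**Figure D1:**
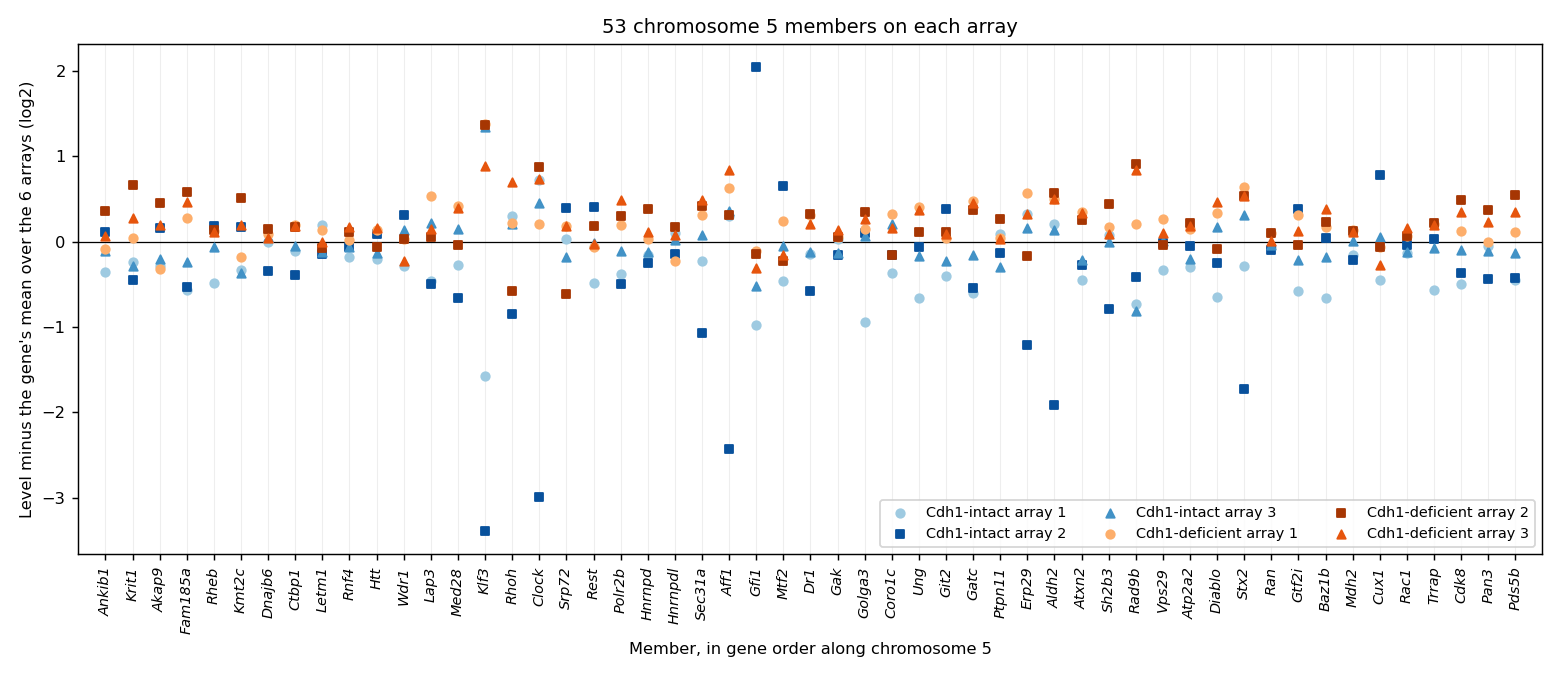
Each column is a member in gene order along chromosome 5, and each point is its log2 level on an array minus its mean over the 6 arrays (blue for Cdh1-intact, orange for Cdh1-deficient). Orange points lie above blue ones for 26 of 53 members, and Cdh1-intact array 2 (dark blue squares) lies far below the others for Klf3, Clock, Aff1, Aldh2 and Stx2 and far above for Gfi1.

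The members of growth signalling were all higher, 7 of 7, with a median difference of 0.22 and 3 separate between the groups. Rheb, the small GTPase that activates the growth kinase mTORC1, lay at 11.51, 12.18 and 11.93 against 12.12, 12.13 and 12.11. It differed by 0.25 (SE 0.18), and Cdh1-intact array 2 lay above all others, so the groups overlapped. Without that array Rheb differed by 0.40, and with Cdh1-intact array 1 left out by 0.07. Krit1, a regulator of Rap1 signalling and cell junctions, lay at 8.36, 8.15 and 8.31 against 8.64, 9.26 and 8.88, a difference of 0.65 (SE 0.18) with no overlap. That value rested on the chosen probe set, since its 4 other probe sets differed by −0.39 to −0.18. Git2, a GTPase-activating protein for Arf proteins, differed by 0.17 (SE 0.21), with 9.31, 10.10 and 9.49 against 9.76, 9.83 and 9.81. Its difference was 0.40 without Cdh1-intact array 2, 0.00 when Cdh1-intact array 1 was left out and −0.03 when its probe sets were averaged.

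Of the remaining signalling genes, Rac1, a GTPase of actin remodelling, was separate between the groups at a difference of 0.19, and Sh2b3, an adaptor that restrains cytokine receptor signalling, at 0.48, or 0.20 without Cdh1-intact array 2. Ptpn11, the phosphatase SHP2 of the RAS pathway, differed by 0.22, and by −0.05 when its 3 probe sets were averaged. Rhoh, a haematopoietic GTPase, differed by 0.22, which turned to −0.14 without Cdh1-intact array 2.

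Cytoskeletal members had a median difference of 0.22, with 2 of 3 higher and 0 separate. Akap9, which anchors protein kinase A at the centrosome and Golgi, lay at 8.07, 8.52 and 8.15 against 8.04, 8.81 and 8.55, a difference of 0.22 (SE 0.23) that ranged from 0.05 without Cdh1-deficient array 2 to 0.43 without Cdh1-deficient array 1. Wdr1, which helps cofilin take actin filaments apart, lay at 10.19, 10.78 and 10.61 against 10.50, 10.50 and 10.24, a difference of −0.11 (SE 0.18) that turned to 0.01 without Cdh1-intact array 2. Coro1c, an actin-binding coronin, differed by 0.22, or 0.09 without Cdh1-intact array 1. For each of these 3 genes the groups overlapped.

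Among 11 members of membrane traffic, the endoplasmic reticulum and protein handling 10 were higher, with a median of 0.23 and 6 separate. Stx2, a syntaxin of membrane fusion, lay at 6.89, 5.45 and 7.49 against 7.82, 7.71 and 7.71, a difference of 1.14 (SE 0.50), or 0.56 without Cdh1-intact array 2. Its next measured neighbour in gene order, Ran, the GTPase of nuclear transport and spindle assembly, lay at 13.25, 13.22 and 13.27 against 13.41, 13.41 and 13.32. For Ran the difference was 0.14 (SE 0.09), small and yet with no overlap, at a level near the top of the range of the arrays. It was 0.41 without shared-target probe sets and 0.06 with arrays centred on their medians. Srp72, a subunit of the signal recognition particle, lay at 10.97, 11.33 and 10.76 against 11.12, 10.33 and 11.12, a difference of −0.17 (SE 0.27) with the lowest value on Cdh1-deficient array 2, and without that array it was 0.10. Sec31a, a coat protein of vesicles leaving the endoplasmic reticulum, differed by 0.81 and Golga3, a golgin, by 0.51, each with no overlap. Sec31a differed by 0.48 without Cdh1-intact array 2 and Golga3 by 0.17 without Cdh1-intact array 1. Atp2a2, the calcium pump SERCA2, spanned 11.69 to 11.94 in Cdh1-intact and 12.13 to 12.20 in Cdh1-deficient cells. It differed by 0.37, or by 0.10 when its 6 probe sets were averaged. Erp29, an endoplasmic reticulum chaperone, differed by 0.49 and by 0.01 without Cdh1-intact array 2. Htt, huntingtin, and the co-chaperone Dnajb6 differed by 0.16 and 0.19, with overlap (for Dnajb6 0.07 without Cdh1-intact array 2), and the clathrin-uncoating kinase Gak by 0.16 with a gap of 0.01 between the groups.

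Transcription factors and corepressors held the widest range, from −0.37 to 2.42, with 7 of 9 higher and 2 separate. Klf3, a Krüppel-like transcriptional repressor that acts in B-cell and erythroid development, lay at 5.76, 3.95 and 8.68 against 8.71, 8.70 and 8.22. Its difference of 2.42 (SE 1.14) came from Cdh1-intact arrays 1 and 2, while array 3 lay among the Cdh1-deficient values, and the mean of its 7 probe sets gave 0.71. Without array 2 it was 1.33 and without array 3 it was 3.69. Gfi1, a repressor active in lymphoid and myeloid precursors, lay at 8.76, 11.78 and 9.22 against 9.63, 9.59 and 9.43. Its difference of −0.37 (SE 0.78) turned to 0.56 without Cdh1-intact array 2. Ctbp1, a corepressor, lay at 11.86, 11.58 and 11.92 against 12.16, 12.14 and 12.15, a difference of 0.37 (SE 0.12) with no overlap.

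Clock and Aff1 also rested on Cdh1-intact array 2. Clock, the circadian activator, differed by 1.21, or 0.02 without that array. Aff1, a subunit of the super elongation complex and a fusion partner in human leukaemia, differed by 1.19, or 0.27 without it. Dr1, a repressor that binds the TATA-binding protein, differed by 0.57 with no overlap, and Gtf2i by 0.27, which became 0.53 without Cdh1-intact array 2 and 0.05 when Cdh1-intact array 1 was left out. Cux1, a homeodomain factor, differed by −0.26, or 0.07 without Cdh1-intact array 2. Rest, a repressor of neuronal genes, differed by 0.07, by 0.29 without Cdh1-intact array 2, by −0.16 when Cdh1-intact array 1 was left out and by −0.15 when its 4 probe sets were averaged.

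Members of the RNA polymerase II, Mediator and chromatin group were higher in 7 of 8 cases, with a median of 0.52 and 5 separate. Polr2b, the second largest subunit of RNA polymerase II, lay at 11.18, 11.07 and 11.46 against 11.76, 11.86 and 12.05, a difference of 0.65 (SE 0.15). Pds5b, a cohesin regulator near the end of the chromosome, lay at 8.82, 8.84 and 9.13 against 9.38, 9.81 and 9.61, a difference of 0.67 (SE 0.16). For both genes each Cdh1-deficient array was above each Cdh1-intact array. Mtf2, a Polycomb-like protein that guides PRC2, lay at 9.07, 10.19 and 9.48 against 9.78, 9.30 and 9.37, a difference of −0.09 (SE 0.31) that turned to 0.21 without Cdh1-intact array 2. Cdk8, the Mediator kinase, differed by 0.65, Baz1b, a chromatin remodeller subunit, by 0.53, and Trrap, a scaffold of histone acetyltransferase complexes that MYC proteins recruit, by 0.41, all 3 with no overlap. Without Cdh1-intact array 1 Baz1b differed by 0.33 and Trrap by 0.23. Med28, a Mediator subunit, differed by 0.52 and its neighbour Lap3, a leucine aminopeptidase, by 0.49, both with overlap at Cdh1-intact array 3. Med28 differed by 0.32 without Cdh1-intact array 2. Kmt2c, a histone H3 lysine methyltransferase, differed by 0.35, by 0.18 without Cdh1-deficient array 2 and by −0.06 when its 4 probe sets were averaged.

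RNA-binding members were higher in 4 of 4 cases. Atxn2, a regulator of mRNA stability and translation, lay at 8.80, 8.97 and 9.03 against 9.60, 9.50 and 9.59, a difference of 0.63 (SE 0.10) with a gap of 0.47 between the closest arrays of the groups. Other Atxn2 probe sets did not agree among themselves, with differences of 0.70 and 0.80 for 2 of them and −0.02 to 0.08 for the other 3. Hnrnpdl lay at 13.27, 13.02 and 13.19 against 12.94, 13.34 and 13.24, a difference of 0.01 (SE 0.14). The sign turned with the array left out. That value rested on the chosen probe set, since Hnrnpdl differed by 0.17 when its 7 probe sets were averaged. Without shared-target probe sets it differed by 0.29. Hnrnpd, a neighbour and relative of Hnrnpdl that binds AU-rich mRNA elements, differed by 0.35 with no overlap. Pan3, of the deadenylase that shortens poly(A) tails, differed by 0.39, or by 0.13 when its 4 probe sets were averaged.

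The members of DNA repair, ubiquitin and cell death pathways were higher in 5 of 5 cases, with a median of 0.48. Rnf4, a ubiquitin ligase for SUMO-modified proteins, lay at 10.22, 10.33 and 10.33 against 10.41, 10.51 and 10.57, a difference of 0.20 (SE 0.10) with no overlap. Ung, the uracil glycosylase that acts after the antibody mutator AID, differed by 0.59 with no overlap. Diablo, an antagonist of apoptosis inhibitors, differed by 0.48 and Ankib1, a RING-type ubiquitin ligase, by 0.23, both with overlap, and these were 0.28 and 0.11 without Cdh1-intact array 1. Rad9b, a paralogue of the 9-1-1 checkpoint clamp subunit Rad9, lay at 4.80, 5.11 and 4.72 against 5.73, 6.44 and 6.37. That is a difference of 1.30 (SE 0.23), the widest gap of any member, at 0.62 between the closest arrays of the groups. Its level was low, and its other probe set, at a mean of 3.69, differed by 0.02.

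Rad9b is transcribed away from Vps29, a subunit of the retromer sorting complex, and their RefSeq starts are 122 bases of intervening sequence apart. The stretch is shown because the pair stands side by side with unlike differences: Vps29 spanned 10.77 to 11.11 in Cdh1-intact and 11.07 to 11.37 in Cdh1-deficient cells, a difference of 0.23 with overlap, or 0.12 without Cdh1-intact array 1. The stretch is chr5:122354206-122354327 (GRCm38.p6, RefSeq), printed on the plus strand with the Rad9b start to its left and the Vps29 start to its right, and it holds 14 CG dinucleotides.
Rad9b-Vps29: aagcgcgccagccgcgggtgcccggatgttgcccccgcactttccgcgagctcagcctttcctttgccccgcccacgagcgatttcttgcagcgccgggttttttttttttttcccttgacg

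Mitochondrial and metabolic members had a median of 0.68, with 6 of 6 higher and 4 separate. Without Cdh1-intact array 2 the median was 0.36, with 5 of 6 higher and 4 separate. Aldh2, which detoxifies acetaldehyde, lay at 11.56, 9.44 and 11.49 against 11.86, 11.93 and 11.85, a difference of 1.05 (SE 0.58), or 0.35 without Cdh1-intact array 2. Mdh2, the malate dehydrogenase of the citric acid cycle, lay at 12.73, 12.67 and 12.90 against 13.03, 13.01 and 13.00, a difference of 0.25 (SE 0.10) with no overlap. Gatc, a subunit of the mitochondrial glutamyl-tRNA amidotransferase, spanned 7.46 to 7.90 in Cdh1-intact and 8.43 to 8.53 in Cdh1-deficient cells. Fam185a spanned 8.76 to 9.09 against 9.60 to 9.91. Letm1, an ion exchanger of the inner membrane, lay at 8.63, 8.29 and 8.32 against 8.58, 8.37 and 8.44, a difference of 0.05 (SE 0.13) that turned to −0.01 without Cdh1-intact array 2.

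The same shift was seen in chromosome 5 genes outside the list. At or above the median level of all genes there were 556 of them, and 482 (86.69%) were higher in Cdh1-deficient cells, with a median difference of 0.36. Over 8471 genes of the other chromosomes in that level range the median was 0.07, and 60.78% were higher. All Cdh1-deficient arrays lay above all Cdh1-intact arrays for 215 of the 556 (38.67%), against 656 of the 8471 (7.74%). The same share among members was 26 of 53 (49.06%). On chromosome 3, one of the other chromosomes, it was 144 of 446 (32.29%) in that level range, and 85.87% were higher. Of the 1209 genes in the whole comparison that separated upward, 261 (21.59%) lay on chromosome 5, which carried 1122 genes or 6.17% of those tested. Chromosome 5 was itself singled out with these data in view, so no test is attached to this.

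**Figure D2:**
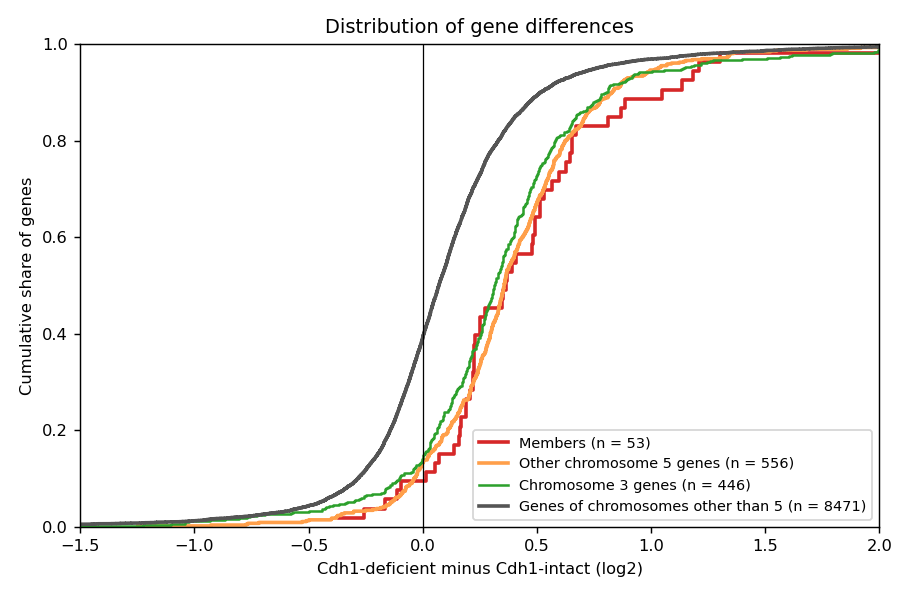
Curves give the cumulative share of genes (vertical) at or under a log2 difference, Cdh1-deficient minus Cdh1-intact (horizontal), for members, other chromosome 5 genes, chromosome 3 genes and all genes of chromosomes other than 5. Apart from the members, genes at or above the median level are drawn. The member and other chromosome 5 curves lie together, with medians of 0.37 and 0.36, to the right of the curve of the other chromosomes at 0.07.

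Array by array, the chromosome 5 shift was alike within each group. For each array the median deviation of genes from their 6-array mean was set against that of the other chromosomes. Over the members this relative value was −0.216, −0.121 and −0.124 against 0.138, 0.164 and 0.132. Over the 556 other chromosome 5 genes it was −0.117, −0.167 and −0.106 against 0.138, 0.091 and 0.180. Because each gene is centred on all 6 arrays, these values say how far arrays stand from each other and not which group departs from a normal level.

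Pairs of arrays give the same picture without that centring. In each of the 9 pairs of a Cdh1-deficient with a Cdh1-intact array, the median chromosome 5 gene at or above the median level was higher in the Cdh1-deficient array, by 0.203 to 0.356 relative to the other chromosomes. The 3 pairs of Cdh1-intact arrays differed by 0.006 to 0.062 and the 3 pairs of Cdh1-deficient arrays by 0.023 to 0.057, whichever array was higher. Cdh1-intact array 2, which stood apart in lineage transcripts, thus lay with the other Cdh1-intact arrays in this measure. Its own pairs with the Cdh1-deficient arrays gave 0.315, 0.310 and 0.356, each larger than the pairs of Cdh1-intact arrays 1 and 3 with the same Cdh1-deficient array.

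Chromosome 5 had the highest median difference of the 20 chromosomes compared (19 autosomes and X), 0.356. Chromosome 3 followed at 0.314 and chromosome 4 at 0.196, and 14 of the 19 others lay within 0.1 of 0. Relative to all other chromosomes, chromosome 3 stood at −0.047, −0.159 and −0.132 against 0.015, 0.214 and 0.146. It was the only other chromosome of the 20 whose groups did not overlap, and its range within the Cdh1-deficient group, 0.199, was wider than that of chromosome 5, 0.076. On chromosome 4 the Cdh1-intact arrays lay at −0.078, −0.067 and −0.050 and the Cdh1-deficient ones at 0.009, −0.051 and 0.236, so that its value came mostly from Cdh1-deficient array 3. Chromosome 19 differed in a way that followed a single array, at −0.468 on Cdh1-intact array 3, as did chromosome 13 at −0.281 on Cdh1-deficient array 2. These comparisons between chromosomes are descriptions, and the difference between chromosomes 5 and 3 was not tested. Chromosome 5 had been selected on these same differences, so its first place is not a separate result.

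The shift ran along the whole chromosome. The 556 genes outside the list were cut into 10 blocks of 55 or 56 consecutive genes. Block medians of the difference ranged from 0.286 to 0.475, and 78.6% to 92.9% of the genes of a block were higher in Cdh1-deficient cells. Over genes of the other chromosomes at or above the median level 60.78% were higher. In all 10 blocks the 3 Cdh1-deficient arrays lay above the 3 Cdh1-intact arrays. Each block holds 1 to 9 members, and the block from Alkbh4 to Amz1 holds only Cux1, which was lower at −0.26 where the other genes of that block had a median of 0.380.

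Arrays were not equally even along the chromosome. On Cdh1-deficient array 2 the relative value was 0.183 over the first 5 blocks and 0.035 over the last 5, with a step from 0.259 in the block from Antxr2 to Tfip11 to −0.021 in the next, from Srrd to Slc8b1. Cdh1-deficient arrays 1 and 3 had 0.148 and 0.183 over the first 5 blocks and 0.135 and 0.174 over the last 5. Cdh1-intact array 1 went from −0.164 to −0.052 and Cdh1-intact array 2 from −0.131 to −0.206, while Cdh1-intact array 3 had −0.107 and −0.099. The division into 5 and 5 blocks was made after the values were seen.

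**Figure D3:**
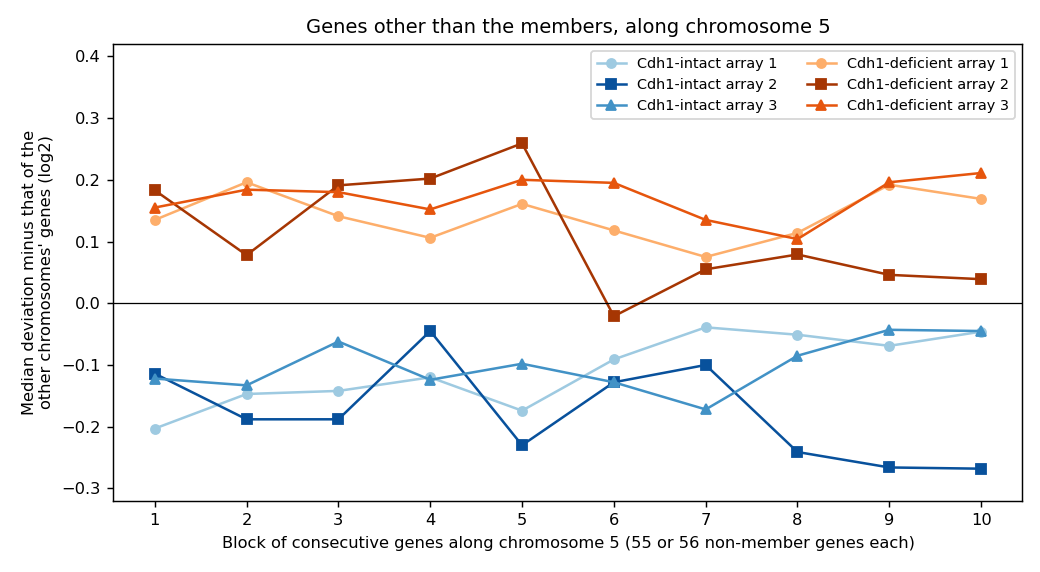
Lines give, for each array, the median log2 deviation of the genes of a block relative to the other chromosomes, over 10 blocks of consecutive non-member genes along chromosome 5 (horizontal). The 3 Cdh1-deficient lines stay above the 3 Cdh1-intact lines in all 10 blocks, and that of Cdh1-deficient array 2 drops from 0.259 to −0.021 between blocks 5 and 6.

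The shift depended on the level of the gene. Chromosome 5 genes in the third and the fourth quartile of mean level each had a median difference of 0.356, with 81.3% and 91.8% higher. In the first and the second quartile, below a mean of 5.97, the medians were −0.026 and −0.012, with 42.3% and 49.2% higher. Genes of the other chromosomes had −0.036, −0.039, 0.086 and 0.060 from the first to the fourth quartile. Of these genes 37.8%, 40.2%, 61.2% and 60.4% were higher, in the same order. Of the measured members 52 had a mean at or above the median level, and the exception was Rad9b.

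Members with several probe sets gave a smaller difference in the probe sets that were not chosen. Of 121 such probe sets 80 were higher in Cdh1-deficient cells, with a median of 0.10. At or above the median level it was 47 of 71, with a median of 0.14, against 272 of 342 and 0.295 for other chromosome 5 genes and 3035 of 5730 and 0.02 for genes of the other chromosomes. Krit1, Rest and Kmt2c were among those whose other probe sets pointed mainly the other way.

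Other chromosome 5 genes of growth control and leukaemia, 18 in a list, were measured in 17 cases. Of these 15 (88.2%) were higher and 2 lower, with a median of 0.52, 6 (35.3%) were separate and 0 passed with limma. Among the 556 chromosome 5 genes above, 86.69% were higher and 38.67% separate. Over chromosome 5 genes of all levels other than members the shares were 66.98% and 21.98%. The list was not filtered by level, and Kit, Pdgfra, Fgfr3 and Hgf lie below the median level. Neither set is therefore matched to the list in level. Flt3, a cytokine receptor of early progenitors, differed by 1.86, or 1.15 without Cdh1-intact array 2, and Cdk6, a G1 kinase, lay at 8.11, 11.07 and 10.09 against 10.35, 10.86 and 10.72. Flt3 was separate and Cdk6 overlapped. Camkk2 differed by 0.88, Chek2 by 0.84, Cad by 0.61, Kdm2b by 0.55 and Mlxip by 0.83, all separate, with Mlxip at 0.50 without Cdh1-intact array 2. Kit, Pdgfra, Fgfr3 and Hgf, at mean levels of 4.09 to 5.21, differed by −0.09 to 0.08.

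Promoter windows from RefSeq (GRCm38.p6, 250 bases before to 50 after a start) were at hand for 51 of the 56 members. N-myc binds the E-box CACGTG, which reads the same on both strands. A window with CACGTG was found for 10 of the 51 members (19.6%), Rheb, Lap3, Med28, Hnrnpd, Dr1, Atxn2, Sh2b3, Ran, Cdk8 and Hmgb1, beside 8.09% of all 27025 genes with a window and 12.7% of genes at or above the median level. The shift of chromosome 5 was present with and without the motif. Among chromosome 5 genes at or above the median level, 73 with CACGTG had a median difference of 0.424 and 451 without it 0.352, against 0.088 and 0.070 on the other chromosomes. Of the measured members with a window, 9 with the motif had a median of 0.493, all 9 higher, and 39 without it 0.271, with 34 higher, a difference that was not tested. A match is a description of letters and not of a bound site.

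Cdk8 and Ran are shown because they had the largest and the smallest difference, 0.65 and 0.14, of the measured members with the motif with the chosen probe sets, though that of Ran moved with the probe set as given above. Each line gives the 250 bases before the start on the plus strand, chr5:146231000-146231249 for Cdk8 and chr5:129019906-129020155 for Ran, with the E-box in capitals. The motif begins 231 bases before the start of Cdk8 and 118 before that of Ran, and the stretches hold 25 and 49 CG dinucleotides.
Cdk8: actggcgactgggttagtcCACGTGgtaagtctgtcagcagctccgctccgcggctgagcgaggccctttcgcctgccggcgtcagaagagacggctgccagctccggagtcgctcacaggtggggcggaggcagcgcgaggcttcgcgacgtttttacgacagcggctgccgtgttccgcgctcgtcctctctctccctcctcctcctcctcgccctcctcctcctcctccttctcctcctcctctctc
Ran: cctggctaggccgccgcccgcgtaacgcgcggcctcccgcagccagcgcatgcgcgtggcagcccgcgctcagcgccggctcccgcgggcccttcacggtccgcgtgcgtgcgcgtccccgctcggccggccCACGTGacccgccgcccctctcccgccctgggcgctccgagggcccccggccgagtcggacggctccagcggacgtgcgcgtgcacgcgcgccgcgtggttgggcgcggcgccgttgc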

How the data were processed

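The members and gene lists were chosen with earlier results of these data known. The authors' deposited table holds log2 values for 45101 probe sets on 6 arrays, made with RMA per the submitters' processing notes, with no version or scan order given. The number of arrays limits the precision, and no detection call was used. Names came from the 2016 annotation of the platform: 34945 carry 1 symbol, 932 carry several and were not used, 9160 are unnamed here and 64 are controls. Chromosome and gene order came from RefSeq (GRCm38.p6), which matched 18032 of 18193 genes, and was used for order only. The test was limma's (version 3.58.1, R 4.3.3, two-sided, eBayes with no trend), adjusted by Benjamini-Hochberg over all genes at 0.05. Positive differences mean a higher level in Cdh1-deficient cells. In simulated data for 18193 genes, the fit found 81.1% of those given a log2 change of 2, with 6.8 false calls per run. Changes as small as the median difference over members, 0.37, were not simulated. How often the fit would call differences of that size is therefore not known here. Each array was taken as 1 mouse. Values in every array are given for the members of largest difference, smallest difference and highest level in each of 8 role groups, and other members by difference or range. Alternatives were other scalings, a level filter, other probe set choices, trend and robust estimation, array weights, the replicate number as a block and each array left out.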

Additional observations from a re-analysis of the deposited data

How the results depend on the processing

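The number of genes called with limma was 0 under all 15 alternatives, among them an adjusted p under 0.1. The count of members higher in Cdh1-deficient cells ranged from 43 to 49 of 53 in the 13 alternatives that kept all 53 members, was 37 of 45 without shared-target probe sets and 44 of 49 without Rad9b, Fam185a, Gatc and Atxn2. The median over members ranged from 0.249 to 0.383, and its lowest value, 0.249, was found when a gene's probe sets were averaged. Without those 4 genes, an alternative chosen after seeing the data, it was 0.346. Without shared-target probe sets 17 of 45 members were separate, beside 26 of 53 in the main setting. The share of all genes that were separate was not counted under that alternative. For the other chromosome 5 genes the median was 0.281 with arrays centred on their medians, 0.276 with quantile normalization and 0.122 with genes of all levels. Leaving out each array in turn gave 0.321 to 0.429, the highest without Cdh1-intact array 3. Of 290 values of 21 named members under the alternatives, 278 moved by less than the spread within groups. Opposite signs were seen for 19 values, of 9 members. The 278 include alternatives that cannot move a difference, named next, and the spread is wide where Cdh1-intact array 2 stood apart. Gfi1, which turned from −0.37 to 0.56 without that array, counts among the 278. The replicate number as a block, trend and robust estimation and the level filter leave each member's difference as it was in this design. The median over members was therefore 0.366 in each, and only the number of genes called, 0, could have changed. For the medians and counts of members they are no check. Same-numbered arrays deviated together at r = −0.139, 0.011 and 0.041, and arrays of unlike number at −0.213 to 0.218. The labels do not say whether the numbers pair mice, and such correlations over all genes cannot decide it.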
